A study of Mus musculus with 12 samples.

Results

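Autophagy delivers worn-out proteins and organelles to lysosomes in membrane sacs called autophagosomes, and mitophagy is the form of it that removes mitochondria. The ULK1 kinase and the Beclin 1 lipid kinase complex start the sac, proteins of the ATG8 family (LC3 and GABARAP) are coupled to its membrane, and receptors such as p62 and BNIP3 tie cargo to them. In skeletal muscle the pathway is engaged by fasting and exercise, and the kinase complex mTORC1 restrains it. Stress induces REDD1, which Ddit4 encodes, and REDD1 in turn inhibits mTORC1.

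The genes described here are 10 that were listed by name for their roles in autophagy or mitophagy: Ulk1, Becn1, Gabarapl1, Map1lc3a, Map1lc3b, Sqstm1, Bnip3, Bnip3l, Pink1 and Tfeb. The 10 were chosen with earlier results of these data known, so shares over all genes are no test of them. Each was taken from the array rows whose platform annotation gave its symbol alone, which gave 1 transcript cluster for each of 9 genes out of 22180 genes measured. Bnip3l shared its only cluster with a related gene and has no value of its own here. All 9 genes lay above the filter on low values on all 12 arrays, and 13747 genes in all were tested.

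Plantaris, a mainly fast-fibred muscle of the calf, was taken from male mice (age 12 weeks) and its RNA was hybridised to Affymetrix whole-transcript arrays. There were 4 groups of 3 arrays: REDD1 knockout mice sampled 1 h after one bout of aerobic exercise, REDD1 knockout mice kept sedentary, wild-type mice 1 h after the same bout, and wild-type mice kept sedentary. All mice had food withheld for 3 h and were sampled under isoflurane. The labels give neither the strain nor the design of the knockout allele, name no litter, batch or hybridisation day, and do not say whether the arrays of a group came from separate animals, so p-values measure the spread between these arrays.

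Values are log2 expression levels, where a difference of 1 is a doubling, and fold changes come from 1 limma fit of all 12 arrays. A gene was called at a Benjamini-Hochberg adjusted p under 0.05 over all 13747 genes. Of the 8 skeletal muscle markers, all 8 were tested, with mean levels from 12.6 to 13.6. Ddit4 itself measured 6.46, 5.72 and 6.77 in knockout exercised muscle, 5.32, 5.44 and 5.08 in knockout sedentary, 9.05, 8.40 and 8.62 in wild-type exercised and 6.13, 5.83 and 6.02 in wild-type sedentary. Knockout against wild type, Ddit4 differed by -2.37 in exercised muscle (limma adjusted p = 0.00011), by -1.54 averaged over conditions (adjusted p = 0.000137) and by -0.71 in sedentary muscle, where it was not called (adjusted p = 0.411) although the arrays did not overlap. Knockout exercised arrays overlapped with wild-type sedentary arrays. Since the deleted part of the gene is not described, the probes may lie outside it. Wild-type exercised replicate 1 and knockout sedentary replicate 3 stood apart from the other arrays of their groups in marker or whole-array comparisons. In whole muscle, fewer cells of a type and less RNA per cell cannot be told apart.

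Averaged over genotypes, Gabarapl1 was the 1 gene of the 9 that rose after exercise at the threshold, against 1.6% of all genes called. Its level, averaged over genotypes, was 1.33-fold higher in exercised than in sedentary muscle. The call was lost without 7 of the 12 arrays when each was left out in turn, and neither genotype alone passed the threshold. Bnip3 showed the next smallest p and missed the threshold. Both genes had every exercised array above every sedentary array within each genotype. Exercised arrays lay above sedentary arrays in both genotypes for 1.44% of all genes tested.

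Because Gabarapl1 and Bnip3 shared that ordering, the 250 bases before their RefSeq start sites are shown, written 5′ to 3′ on the gene's own strand. RefSeq's mouse table (GRCm38.p6) held a promoter for 7 of the 10 genes. Gabarapl1 (chr6:129532942-129533191, plus strand) had 46.8% G and C, and Bnip3 (chr7:138909507-138909756, minus strand) had 72.4%. Capitals mark every match, on either strand, to 7 short motifs that were chosen after the expression values were known.
Gabarapl1: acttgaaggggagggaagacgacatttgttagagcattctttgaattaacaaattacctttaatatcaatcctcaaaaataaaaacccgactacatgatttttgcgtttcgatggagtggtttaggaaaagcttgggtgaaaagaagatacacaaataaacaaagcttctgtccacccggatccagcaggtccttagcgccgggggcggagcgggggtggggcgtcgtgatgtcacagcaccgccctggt
Bnip3: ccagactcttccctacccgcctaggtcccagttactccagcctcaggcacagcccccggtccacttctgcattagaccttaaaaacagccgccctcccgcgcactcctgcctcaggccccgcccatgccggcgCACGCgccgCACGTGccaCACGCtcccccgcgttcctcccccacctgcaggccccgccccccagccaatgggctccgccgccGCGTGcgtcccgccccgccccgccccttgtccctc

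The Bnip3 window held 1 CACGTG (the E-box that TFEB-family and other factors read), whose first base lies 108 bases before the start. That E-box contains both matches to ACGTG, the core of a hypoxia response element. GCGTG, the other form of that core, matched 3 times, 117, 99 and 35 bases before the start. GCGTG was not particular to Bnip3. It also matched in the promoters of Ulk1, Pink1 and Map1lc3b (5 matches in Map1lc3b), and not in that of Sqstm1. Tfeb had several promoters, and GCGTG matched in some of them but not all. Among 32851 RefSeq promoters of 300 bases, 7.15% held CACGTG, 19.6% ACGTG and 32.4% GCGTG. The Gabarapl1 window held no match to these, nor to GTAAACA (in 3.65% of promoters, a FOXO element) or TGACGTCA (1.79%, a cAMP response element). It also held no match to TGACG (20.8%), a part of TGACGTCA, or to AGAACA (19%), a part of a glucocorticoid receptor element. A match is a run of letters and not evidence of binding, and the absence of these letters says nothing about any factor.

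Among the genes that start the autophagosome, Ulk1, the kinase that mTORC1 holds in check, measured 8.26, 8.45 and 8.08 in knockout exercised muscle, 8.25, 8.57 and 8.41 in knockout sedentary, 7.67, 8.45 and 8.32 in wild-type exercised and 8.57, 8.0002 and 8.66 in wild-type sedentary. The groups overlapped in each genotype, and wild-type exercised replicate 1 was the lowest array. The log2 fold change with exercise, averaged over genotypes, was -0.20 (95% interval -0.50 to 0.09, limma adjusted p = 0.648). Without wild-type exercised replicate 1 it was -0.0836, and without both arrays that stood apart -0.0841. Ulk1 had the widest spread of the 9 genes, a pooled within-group SD of 0.302, which exceeded that of 93.5% of genes tested.

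Becn1 encodes Beclin 1, a subunit of the class III lipid kinase complex. It measured 7.06, 7.05 and 7.08 in knockout exercised muscle, 7.15, 7.02 and 7.10 in knockout sedentary, 7.02, 7.001 and 7.05 in wild-type exercised and 7.07, 6.95 and 7.18 in wild-type sedentary. Exercised and sedentary arrays overlapped in both genotypes. Its within-group SD of 0.0663 was the smallest of the 9 genes, and the averaged exercise difference was -0.03 (95% interval -0.17 to 0.11, limma adjusted p = 0.912).

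Of the ATG8 family, Gabarapl1 encodes a GABARAP-like protein that is coupled to the autophagosome membrane. It measured 8.61, 8.46 and 8.44 in knockout exercised muscle, 7.70, 8.15 and 8.07 in knockout sedentary, 8.09, 7.77 and 8.10 in wild-type exercised and 7.70, 7.72 and 7.65 in wild-type sedentary. Knockout exercised arrays were the highest and overlapped with no other group. Wild-type sedentary arrays were the lowest, but knockout sedentary replicate 1 lay within their range. In group means the order was knockout exercised (8.50 ± 0.09), wild-type exercised (7.99 ± 0.19), knockout sedentary (7.97 ± 0.24) and wild-type sedentary (7.69 ± 0.04; SD, n = 3 each), and the middle groups did not differ beyond their spread.

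The averaged exercise effect on Gabarapl1 was a log2 fold change of 0.41 (SE 0.09, 95% interval 0.23 to 0.60, limma adjusted p = 0.0242). In knockout muscle it was 0.53 (SE 0.12, adjusted p = 0.105) and in wild-type muscle 0.30 (SE 0.12, adjusted p = 0.552), neither past the threshold. The difference of these effects was 0.24 (95% interval -0.14 to 0.61, adjusted p = 0.997), so the effect was not shown to differ by genotype. Leaving out 1 array at a time moved the averaged adjusted p between 0.0121 and 0.0769, and the call was lost without 7 of the 12 arrays. Those arrays were knockout exercised replicates 1 and 3, wild-type exercised replicates 1 and 3, and all 3 wild-type sedentary arrays. Leaving out both arrays that stood apart gave an adjusted p of 0.0469, and a test without variance moderation gave 0.146.

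Knockout against wild type, Gabarapl1 differed by 0.40 averaged over conditions (SE 0.09, limma adjusted p = 0.0589), just outside the threshold. The difference was 0.52 in exercised muscle (SE 0.12, adjusted p = 0.199) and 0.28 in sedentary muscle (adjusted p = 0.607). All 3 knockout arrays lay above the wild-type arrays among exercised mice, and the groups overlapped among sedentary mice. The averaged difference passed the threshold in 2 of 10 other settings, with array weights and with the stricter filter, and without 2 of 12 arrays (wild-type exercised replicate 1 and knockout sedentary replicate 1).

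**Figure D1:**
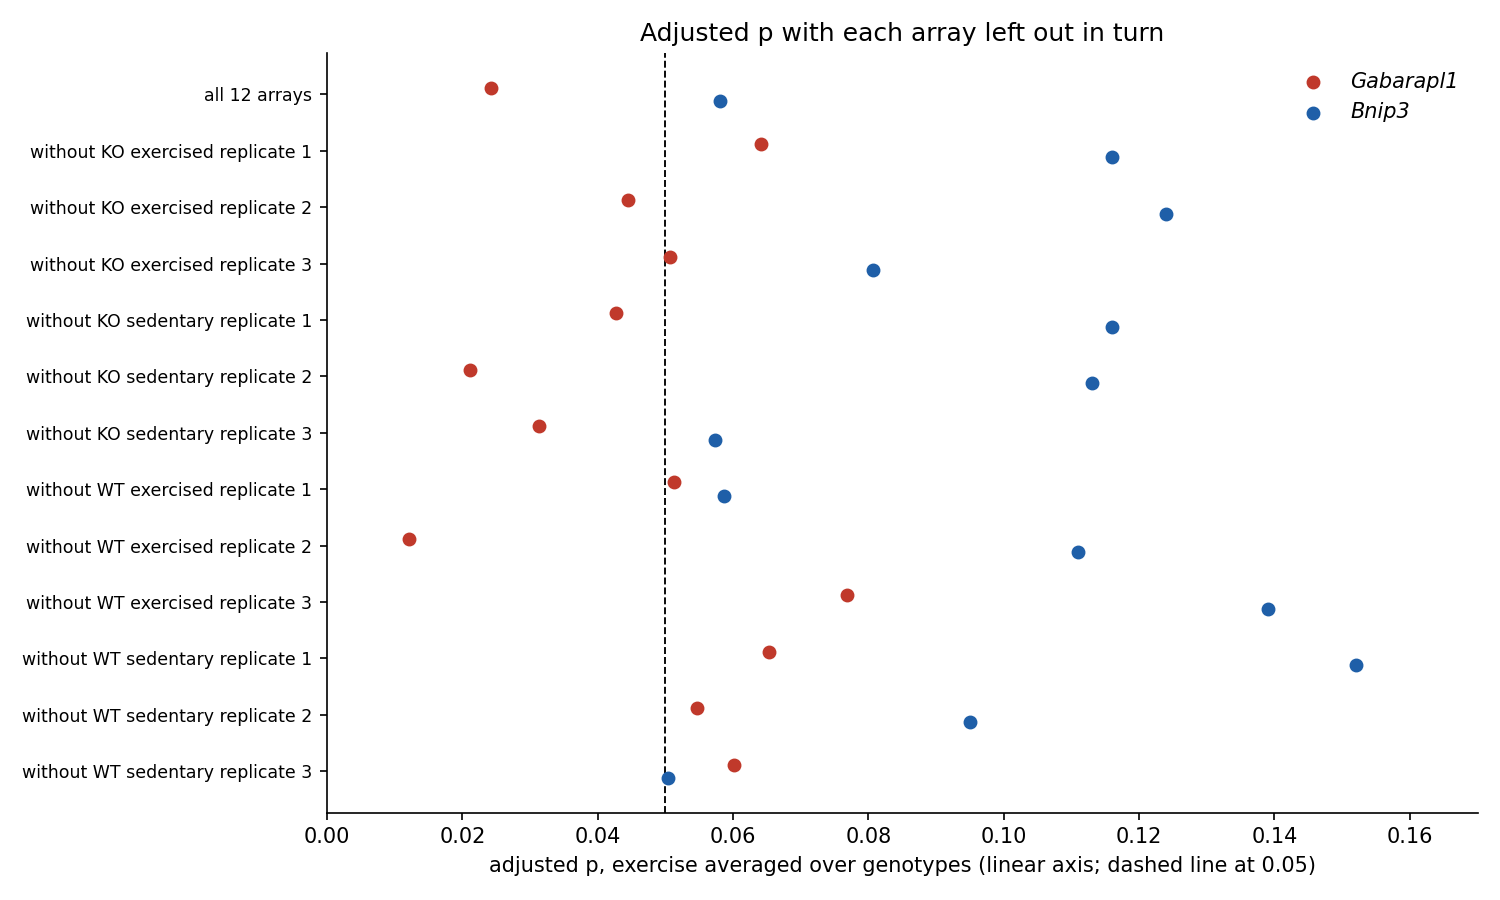
Adjusted p (limma, x axis) of the averaged exercise effect for Gabarapl1 (red) and Bnip3 (blue), with all 12 arrays and with each array left out in turn (y axis). The red points lie between 0.0121 and 0.0769 and fall on both sides of the dashed threshold, while every blue point lies right of it.

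Map1lc3a and Map1lc3b encode LC3 proteins, the other ATG8 proteins listed. Map1lc3a measured 8.15, 8.03 and 8.06 in knockout exercised muscle, 8.37, 7.71 and 7.82 in knockout sedentary, 8.19, 7.998 and 7.97 in wild-type exercised and 7.92, 8.07 and 7.92 in wild-type sedentary. All groups overlapped, and knockout sedentary replicate 1 was the highest array. The averaged exercise difference was 0.10 (95% interval -0.12 to 0.31, limma adjusted p = 0.793).

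Map1lc3b measured 10.43, 10.44 and 10.21 in knockout exercised muscle, 10.39, 10.44 and 10.20 in knockout sedentary, 9.97, 10.11 and 10.25 in wild-type exercised and 10.38, 10.23 and 10.18 in wild-type sedentary. The wild-type exercised group held the lowest arrays, and it overlapped with every other group. Among exercised mice, knockout differed from wild type by 0.25 (95% interval 0.04 to 0.47, limma adjusted p = 0.675). The averaged exercise difference was -0.07 (95% interval -0.22 to 0.08).

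Sqstm1 encodes p62, the receptor that carries ubiquitin-tagged cargo to ATG8 proteins. It measured 10.56, 10.57 and 10.40 in knockout exercised muscle, 10.45, 10.35 and 10.27 in knockout sedentary, 10.23, 10.29 and 10.23 in wild-type exercised and 10.35, 10.37 and 10.16 in wild-type sedentary. Knockout exercised arrays all lay above wild-type exercised arrays, with overlap in every other comparison of 2 groups made here. The knockout difference after exercise was 0.26 (95% interval 0.08 to 0.45, limma adjusted p = 0.505), which was not called. For Sqstm1 the averaged exercise difference was 0.06 (95% interval -0.07 to 0.19).

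Bnip3, a receptor on the outer mitochondrial membrane that is known to be induced by low oxygen, measured 9.08, 9.15 and 8.999 in knockout exercised muscle, 8.64, 8.74 and 8.82 in knockout sedentary, 8.90, 8.95 and 8.97 in wild-type exercised and 8.603, 8.78 and 8.86 in wild-type sedentary. Exercised arrays lay above sedentary arrays in each genotype without overlap, and the gap was narrow in wild type. Among exercised mice the knockout arrays were the higher ones, also without overlap and by a narrow gap, while sedentary arrays of the 2 genotypes overlapped.

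For Bnip3 the averaged exercise effect was 0.27 (SE 0.07, 95% interval 0.13 to 0.41, limma adjusted p = 0.0581). It was 0.34 in knockout muscle (adjusted p = 0.188) and 0.19 in wild-type muscle (adjusted p = 0.629), and the difference of these effects was 0.15 (95% interval -0.13 to 0.43). The averaged effect passed the threshold under the stricter filter (adjusted p = 0.0476) and with array weights (adjusted p = 0.0258), and over all other settings and left-out arrays its adjusted p lay between 0.0504 and 0.152. After exercise, knockout differed from wild type by 0.14 (95% interval -0.06 to 0.34).

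Pink1 encodes a kinase that marks damaged mitochondria for removal. It measured 9.93, 9.82 and 9.84 in knockout exercised muscle, 9.88, 10.01 and 9.89 in knockout sedentary, 9.77, 9.61 and 9.75 in wild-type exercised and 9.99, 9.92 and 9.79 in wild-type sedentary. Wild-type exercised arrays were the lowest and overlapped with neither wild-type sedentary nor knockout exercised arrays. Both gaps were smaller than the within-group SD of Pink1, 0.0829. The exercise difference in wild type was -0.19 (95% interval -0.37 to -0.01, limma adjusted p = 0.595), and the knockout difference after exercise was 0.16 (95% interval -0.03 to 0.34). Neither was called.

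Tfeb, a transcription factor for lysosomal and autophagy genes that mTORC1 keeps in the cytoplasm, measured 5.52, 5.62 and 5.72 in knockout exercised muscle, 5.61, 5.64 and 5.45 in knockout sedentary, 5.40, 5.38 and 5.46 in wild-type exercised and 5.69, 5.54 and 5.48 in wild-type sedentary. As for Pink1, wild-type exercised arrays lay below both wild-type sedentary and knockout exercised arrays. Both gaps were smaller than the within-group SD of Tfeb, 0.0925. The exercise difference in wild type was -0.16 (95% interval -0.39 to 0.07, limma adjusted p = 0.795), and the knockout difference after exercise was 0.21 (95% interval -0.02 to 0.44, adjusted p = 0.801).

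**Figure D2:**
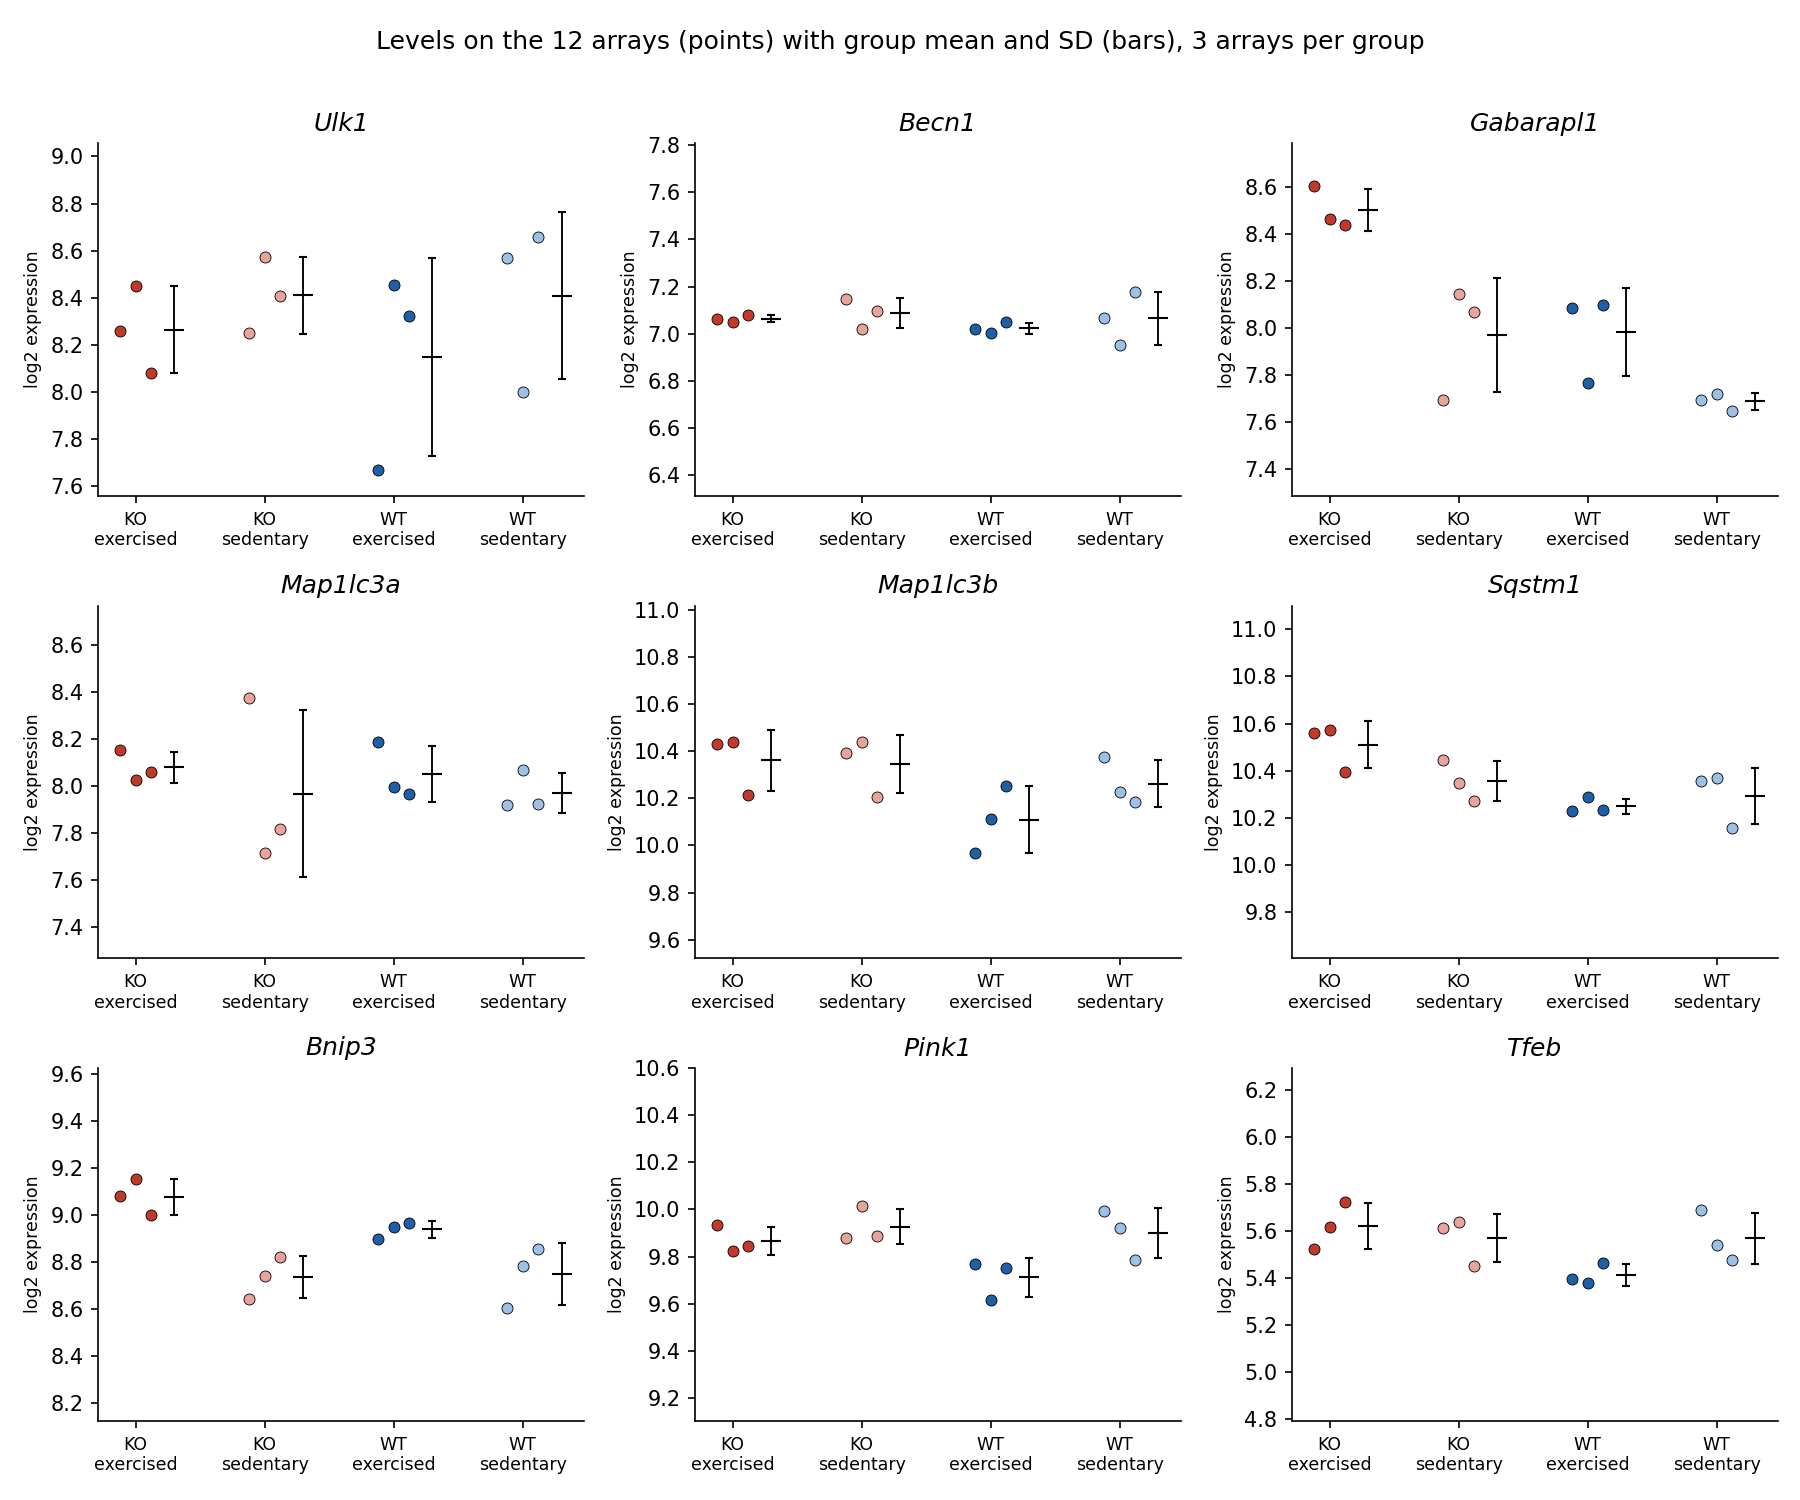
Log2 expression (y axis, the same span of 1.5 units in each panel) of the 9 genes on the 12 arrays, as points by group (x axis), with the group mean and SD (n = 3) as bars. Gabarapl1 and Bnip3 lie higher on exercised than on sedentary arrays within each genotype, Becn1 is nearly level, and Ulk1 spreads widely within groups.

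Over the 9 genes, exercise in knockout muscle gave 0 called genes by limma, against 0.276% of all genes tested, and 2 of 9 had an unadjusted p under 0.05, against 8.93%. Exercised and sedentary arrays did not overlap for 2 of 9 genes in knockout, against 13.9% of all genes. In wild-type muscle, 0 of 9 were called by limma, against 0.567% of all genes, 2 of 9 had an unadjusted p under 0.05, against 8.21%, and 4 of 9 did not overlap, against 12.9%. Those 4 went both ways, with Gabarapl1 and Bnip3 higher and Pink1 and Tfeb lower after exercise. For each of the 4 the gap between the groups was smaller than the gene's within-group SD. Averaged over genotypes, 1 of 9 was called, against 1.6% of all genes, and the median difference of the 9 genes was -0.03, against -0.01 over all genes.

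Between genotypes, 0 of 9 were called by limma in exercised muscle (0.175% of all genes), in sedentary muscle (0.138%) or averaged over conditions (0.546%). An unadjusted p under 0.05 was found for 3 of 9 in exercised muscle (6.58% of all genes), 1 of 9 in sedentary muscle (7.7%) and 3 of 9 averaged over conditions (9.36%). After exercise, 6 of 9 genes did not overlap between genotypes, against 11.7% of all genes. Of these, Becn1, Pink1, Bnip3, Sqstm1 and Tfeb varied little, at percentiles 1.7 to 8.5 of all genes tested for within-group SD. A small shift is enough to separate such genes, so the share over all genes is not a like baseline. In all 6 (Gabarapl1, Sqstm1, Bnip3, Pink1, Tfeb and Becn1) the knockout arrays were higher, an ordering found in 6.06% of all genes. For Becn1, Bnip3, Pink1 and Tfeb the gap between the groups was smaller than the gene's within-group SD. In sedentary muscle 0 of 9 were free of overlap, against 13.1%. The median knockout difference of the 9 genes was 0.16 in exercised muscle and 0.02 in sedentary muscle, against medians over all genes of -0.0021 and -0.015.

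The difference of the exercise effects (knockout minus wild type) was called for 0 of 9 genes and for 0% of all genes by limma, with 0 of 9 at an unadjusted p under 0.05, against 4.51% of all genes. Its estimate was above 0 for 9 of 9 genes, against 53.2% of all genes. That count was 7 to 9 over the alternative settings, with Map1lc3a, Ulk1 and Becn1 changing sign in some. The wild-type exercised arrays enter this difference, the wild-type exercise effect and the knockout difference after exercise alike, so these are not separate observations.

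**Figure D3:**
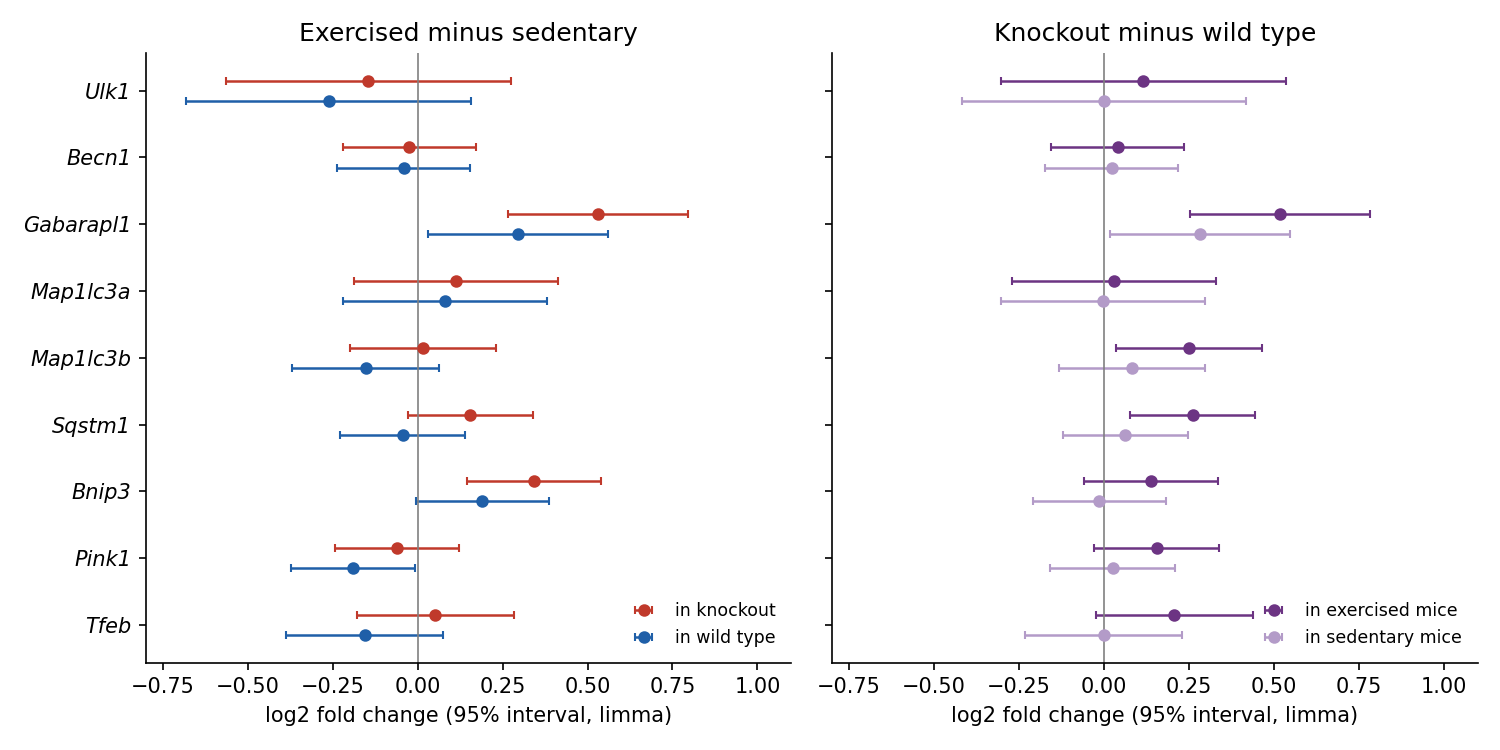
Log2 fold changes (x axis) with limma's 95% intervals for the 9 genes (y axis), exercised minus sedentary on the left (knockout red, wild type blue) and knockout minus wild type on the right (exercised mice dark, sedentary mice pale). The Gabarapl1 points lie at 0.53 and 0.30 on the left and at 0.52 and 0.28 on the right, and most other intervals cover 0.

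Markers of other cells also moved with exercise. All 5 endothelial markers were tested, and their mean level relative to the 12-array mean was -0.34 to -0.04 in knockout exercised muscle, 0.11 to 0.22 in knockout sedentary, -0.14 to -0.10 in wild-type exercised and 0.09 to 0.26 in wild-type sedentary. In the averaged exercise comparison 0 of the 5 had an estimate above 0 (median -0.27), and 2 were called lower, against 1.6% of all genes called in either direction. Slow-fibre markers (6 of 6 tested) ranged from -0.14 to 0.74, -0.62 to 0.78, -0.16 to -0.07 and -0.51 to 0.02 in the same groups, which overlapped. None of the 6 was called, but 6 of 6 had an estimate above 0 for the difference of exercise effects (median 0.36) and 5 of 6 for knockout in exercised muscle (median 0.46), the direction of the listed genes. Extracellular matrix markers (6 of 6 tested) lay at -0.28 to -0.20 in knockout exercised muscle, below every other array. They lay at -0.15 to 0.80 in knockout sedentary (the highest in replicate 3), -0.08 to 0.13 in wild-type exercised and -0.13 to -0.0058 in wild-type sedentary. Their median difference with exercise in knockout was -0.47, and 0 of 6 were called or had an estimate above 0 for the difference of exercise effects. That difference was above 0 for 0 of 7 macrophage and leukocyte, 0 of 3 adipocyte and 0 of 2 Schwann cell markers tested. It was above 0 for 1 of 5 endothelial, 6 of 8 skeletal muscle and 1 of 1 red blood cell markers tested. The part of these cell types in the values of the 9 genes was not tested.

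A wider set of 110 autophagy genes in 11 lists by role, which holds the genes above, showed few changes. The lists were chosen with earlier results of these data known, so shares over all genes are no test of them. Of the 110 genes, 101 were tested. After exercise, averaged over genotypes, 4 rose and 0 fell (3.96% of 101, against 1.6% of all genes). That count was 1 to 4 with each array left out, being 1 without wild-type exercised replicate 3 or wild-type sedentary replicate 2 and 2 without knockout exercised replicate 1 or 3 or wild-type sedentary replicate 3. It was 1 without variance moderation and 5, of 93 tested, with the stricter filter. Besides Gabarapl1 the 4 genes were Foxo1, Retreg1 and Atp6v1h. The median over the 101 genes was -0.0013, against -0.01 over all genes.

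Foxo1, a transcription factor that drives atrophy and autophagy genes in muscle, measured 7.99, 7.99 and 8.19 in knockout exercised muscle, 7.39, 7.71 and 7.15 in knockout sedentary, 8.11, 8.07 and 8.51 in wild-type exercised and 7.41, 6.88 and 7.43 in wild-type sedentary. Exercised arrays were higher in each genotype without overlap. The averaged effect was 0.82 (SE 0.12, limma adjusted p = 0.00164), with 0.99 in wild type (adjusted p = 0.01) and 0.64 in knockout (adjusted p = 0.17). Foxo1 had 2 clusters that disagreed: the dimmer one, not used for these values, differed by 0.03 in wild type and 0.14 in knockout. With the mean of both clusters the wild-type effect was 0.51 (adjusted p = 0.121). The wild-type call was also lost without wild-type exercised replicate 3 (adjusted p = 0.071), without wild-type sedentary replicate 2 (adjusted p = 0.0576) and without variance moderation, which also ended the averaged call (adjusted p = 0.0732).

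Retreg1 encodes a receptor for autophagy of the endoplasmic reticulum. It measured 11.36, 11.48 and 11.13 in knockout exercised muscle, 10.38, 10.84 and 10.72 in knockout sedentary, 10.69, 10.67 and 10.99 in wild-type exercised and 10.75, 10.56 and 10.45 in wild-type sedentary. Knockout exercised arrays lay above all others. Its averaged exercise effect was 0.44 (SE 0.09, limma adjusted p = 0.0235), with 0.68 in knockout (adjusted p = 0.0427) and 0.20 in wild type (adjusted p = 0.786), and the difference of these, 0.48, was not called (unadjusted p = 0.019, adjusted p = 0.997). The knockout call was lost without 7 of 12 arrays (all 3 knockout exercised, knockout sedentary replicates 1 and 3, and wild-type sedentary replicates 2 and 3), with an adjusted p up to 0.171, and in 5 of 11 other settings. The averaged call was lost without 6 of 12 (knockout exercised replicates 1 and 2, knockout sedentary replicate 1, wild-type exercised replicate 3, and wild-type sedentary replicates 2 and 3), with an adjusted p up to 0.0694, and without an intensity trend (0.055) or variance moderation (0.199).

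Atp6v1h encodes a subunit of the proton pump that acidifies lysosomes. It measured 6.43, 6.42 and 6.56 in knockout exercised muscle, 6.16, 6.20 and 6.10 in knockout sedentary, 6.48, 6.33 and 6.58 in wild-type exercised and 6.11, 5.91 and 6.13 in wild-type sedentary. Exercised arrays lay above sedentary arrays in both genotypes. The averaged effect was 0.36 (SE 0.07, limma adjusted p = 0.0181), and it was lost without knockout exercised replicate 3, wild-type exercised replicate 3 or wild-type sedentary replicate 2 (adjusted p up to 0.0627) and without both arrays that stood apart (adjusted p = 0.0668).

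**Figure D4:**
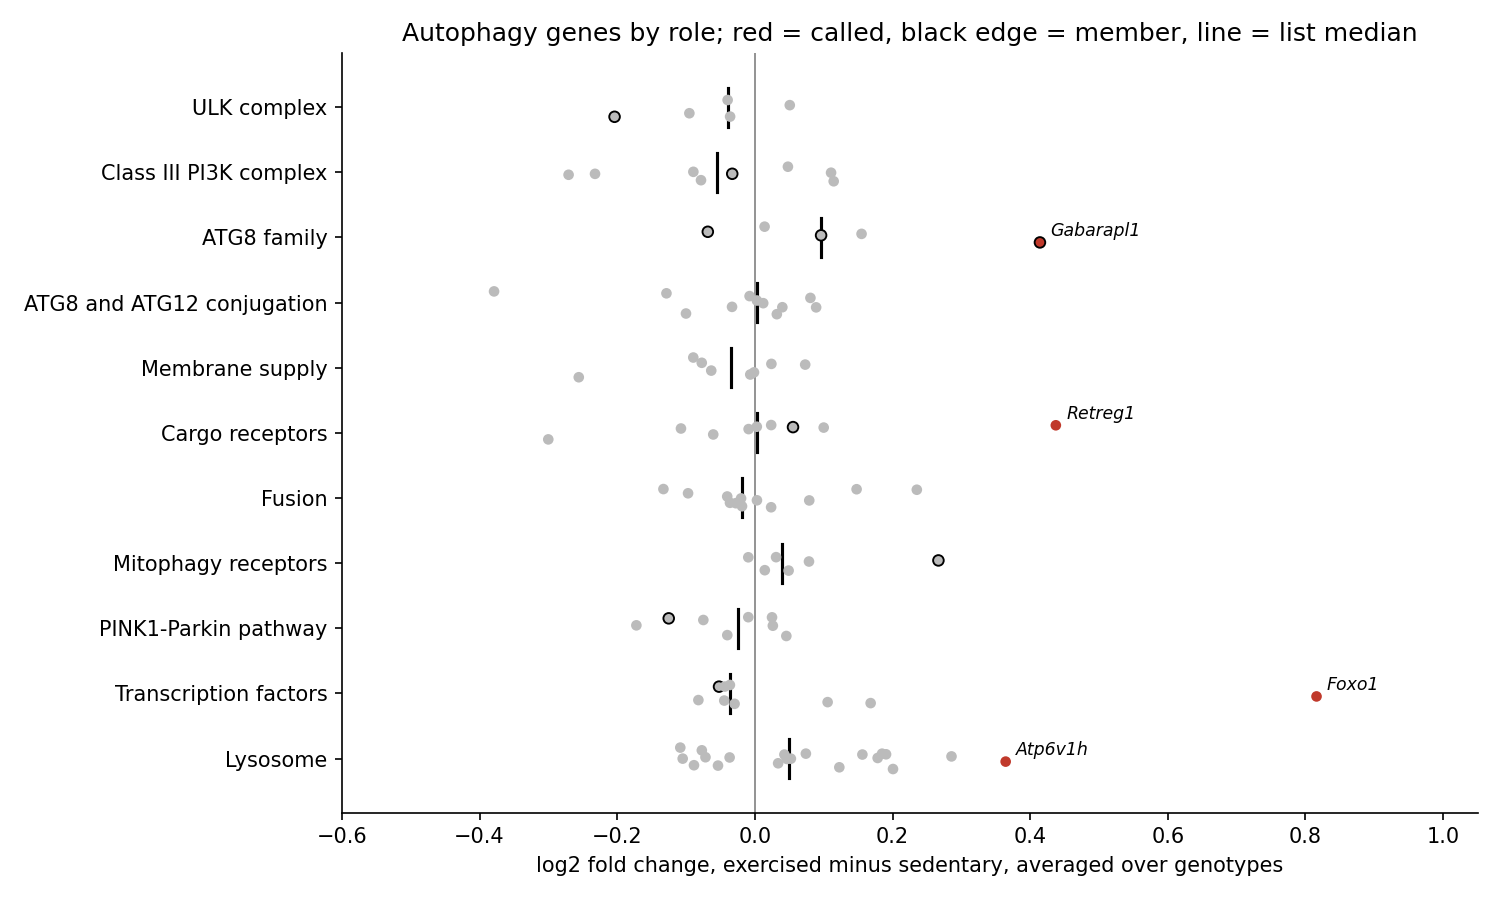
Log2 fold change with exercise averaged over genotypes (x axis) for 101 autophagy genes grouped by role (y axis), with called genes in red, the 9 listed genes edged in black and each list's median as a line. The 4 called genes lie furthest right, at 0.36 to 0.82, while Atg4c, which was not called, lies at -0.38. The list medians stay between -0.06 and 0.10.

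Within the lists, the ATG8 family had 1 of 5 called in the averaged exercise comparison, and the 95% intervals of its other members covered 0, among them Gabarapl2 (0.15, 95% interval -0.03 to 0.34, and 0.07 without both arrays that stood apart) and Gabarap (-0.12 to 0.15). The ULK complex had 0 of 5 called, with intervals of -0.27 to 0.08 for Ulk2, -0.12 to 0.22 for Rb1cc1 and -0.22 to 0.14 for Atg13. Of the class III lipid kinase complex 0 of 8 were called, and the smallest p belonged to Rubcn, an inhibitor of the complex in autophagosome maturation (-0.27, limma adjusted p = 0.182). Nrbf2 (-0.23) and Pik3c3 (0.11), its catalytic subunit, came next.

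The enzymes that couple ATG8 proteins to membranes had 0 of 11 called, led by the protease Atg4c (-0.38, limma adjusted p = 0.311, and -0.25 without both arrays that stood apart), Atg7 (-0.13) and Atg3 (0.08). Genes for membrane supply had 0 of 8 called, led by the lipid scramblase Atg9a (-0.26, adjusted p = 0.377), Wipi2 (-0.09) and Atg2a (-0.08). Genes for fusion with the lysosome had 0 of 12 called, with the smallest p for the SNARE Vamp8 (0.24, adjusted p = 0.251), then Stx17 (-0.13) and Vps18 (0.15). The Stx17 estimates went opposite ways, with -0.34 in wild type and 0.07 in knockout. The difference of these, 0.41, was not called (limma unadjusted p = 0.00674, adjusted p = 0.997).

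The mitophagy receptors had 0 of 6 called, Bnip3 among them, and after it came Nipsnap2 (95% interval -0.04 to 0.20), Bcl2l13 (-0.15 to 0.25) and Phb2 (-0.13 to 0.19). In the PINK1-Parkin pathway 0 of 8 were called, and besides Pink1 the smallest p belonged to the deubiquitinase Usp8 (-0.17, limma adjusted p = 0.554, and -0.08 without both arrays that stood apart), the mitochondrial fusion gene Mfn2 (95% interval -0.22 to 0.07) and the deubiquitinase Usp30 (-0.13 to 0.22). The cargo receptors had 1 of 9 called (Retreg1), the transcription factors 1 of 9 (Foxo1) and the lysosomal genes 1 of 20 (Atp6v1h).

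Between genotypes, 0 of the 101 genes were called by limma in exercised muscle, 66 of 101 had a higher mean in knockout (49.29% of all genes did), and their median difference was 0.05, against -0.0021 over all genes. In sedentary muscle 50 of 101 were higher in knockout, against 46.01% of all genes. Averaged over conditions 60 of 101 were higher, against 47.42% of all genes, and 0 were called. This count of called genes was 2 with the stricter filter or array weights, and 0 to 1 with each array left out.

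Pearson's r over the 12 arrays describes which genes had the most similar patterns. It includes the differences between groups and has no test. The nearest to Gabarapl1 were Retreg1 (r = 0.91), Hipk4 (0.91) and Slc25a33 (0.89), and with group means removed these fell to 0.69, 0.69 and 0.42. The nearest to Bnip3 were Kdsr (0.92), the hexokinase gene Hk2 (0.91) and Trpv4 (0.91), and to Ulk1 they were Kmt2a (0.95), Nelfa (0.90) and Cbll1 (0.90).

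Patterns like those of the other genes were found for Aprt, Trir and Dnpep (Map1lc3a, r from 0.90 to 0.92), Chat, Mycbpap and Dym (Map1lc3b, 0.88 to 0.89), and Lrrc3, Cir1 and Snrnp48 (Sqstm1, 0.88 to 0.89). For Becn1 they were Calhm2, Ogfr and Tcl1b4 (0.82 to 0.84), for Tfeb Tspan8, Pnrc2 and Ndrg2 (0.87 to 0.93) and for Pink1 Asb12, H60b and the endothelial receptor gene Tek (0.86 to 0.89). Among the 9 genes themselves the closest pairs were Bnip3 with Gabarapl1 (r = 0.75) and Map1lc3b with Sqstm1 (r = 0.72), and with group means removed these were 0.25 and 0.63.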

How the data were processed

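The authors deposited 1 log2 value per array for each transcript cluster. The log base was read from their range (0.357 to 13.9), and background correction, normalisation and summarisation are not given in the sources used here. Per the submitters' processing notes, Partek was used. The labels' protocols name whole-transcript labelling of total RNA. Of 41345 clusters, 23521 carried 1 gene symbol, 1814 several and 16010 none in the platform annotation. The cluster with the highest mean stood for a gene, and genes above the table median of 4.557 on at least 3 arrays were tested (13747). R 4.3.3 with limma 3.58.1 (lmFit, eBayes with an intensity trend) fitted 1 mean per group, with 8 residual degrees of freedom, and 7 contrasts were adjusted by Benjamini-Hochberg. The number of arrays limits the precision. The script was tested on simulated data. Replicate numbers follow accession order and pair nothing. The genes and lists were chosen with earlier results of these data known. Named genes were the 10 listed, the 3 nearest each by r, list genes called in any contrast or, in lists with none, the 3 of smallest p, and Ddit4. The other Gabarap genes were named after their values were seen. Several list genes are not analysed here. Promoter letters come from RefSeq.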

Additional observations from a re-analysis of the deposited data

How the results depend on the processing

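Limits: 3 arrays per group, an unstated normalisation and thresholds close to several adjusted p-values limit these results. No paired analysis was possible because replicate numbers follow accession order. Of 2168 single-gene values over 23 alternative settings, 2056 kept their direction and side of the threshold, 37 lost a call, 7 gained one and 68 changed sign, and of the 63 values of the 9 genes 19 changed sign in some setting, 0 of them called. The cause of these changes was not tested. The count of the 9 genes called for the averaged exercise effect (1) was 0 without variance moderation, 2 with the stricter filter or array weights, and 0 to 1 with arrays left out. For the averaged knockout effect (0) it was 1 with the stricter filter or array weights and 0 to 1 with arrays left out, and for knockout in exercised muscle 1 with array weights. Gabarapl1 with averaged exercise stayed at 0.41 without moderation (adjusted p = 0.146) and lay between 0.35 and 0.47 with arrays left out, and Bnip3 was 0.27 (stricter filter), 0.26 (array weights) and 0.23 to 0.29.

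Genes called, over all settings: 78 for exercise in wild type (12 to 127), 38 for exercise in knockout (0, without moderation, to 83), 19 for knockout in sedentary muscle (1 to 27), 24 for knockout in exercised muscle (1 to 89), 220 for averaged exercise (67 to 348) and 75 for averaged knockout (23 to 193).

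Sign changes under median centring: Ulk1 -0.0119 (knockout in sedentary). Under quantile normalization: Map1lc3b -0.0528 (exercise in knockout), Map1lc3a -0.0017 and Becn1 -0.0026 (difference of exercise effects), Map1lc3a 0.0141 and Bnip3 0.0121 (knockout in sedentary), Phb2 -0.0059 and Gabarap -0.0154 (averaged exercise). With array weights: Map1lc3b -0.0523 (exercise in knockout), Ulk1 -0.1634 (difference), Tfeb 0.0183 (knockout in sedentary), Ulk1 -0.0989 (knockout in exercised), Map1lc3a -0.0021 and Ulk1 -0.0172 (averaged knockout). Without both arrays that stood apart, an alternative chosen after seeing the data: Map1lc3b -0.0537 and Tfeb -0.0064 (exercise in knockout), Ulk1 -0.1255 (difference), Map1lc3a 0.0726 and Tfeb 0.0582 (knockout in sedentary), Ulk1 -0.124 (knockout in exercised), Usp30 -0.008 (averaged exercise) and Ulk1 -0.0612 (averaged knockout).

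With each array left out in turn, ranges that crossed 0 were, for averaged exercise, -0.0846 to 0.011 (Atg13), -0.0037 to 0.1219 (Bcl2l13), -0.0216 to 0.052 (Gabarap) and -0.0145 to 0.0942 (Phb2). For exercise in wild type Becn1 ran from -0.0979 to 0.0152. For exercise in knockout they were -0.0581 to 0.0048 (Becn1), -0.0148 to 0.3151 (Map1lc3a), -0.0537 to 0.0907 (Map1lc3b) and -0.0064 to 0.1004 (Tfeb). For the difference they were -0.0398 to 0.0733 (Becn1), -0.0947 to 0.2352 (Map1lc3a) and -0.1245 to 0.3203 (Ulk1). For knockout in sedentary muscle they were -0.0326 to 0.0805 (Becn1), -0.0857 to 0.0416 (Bnip3), -0.2053 to 0.1246 (Map1lc3a), -0.0319 to 0.0724 (Pink1), -0.0046 to 0.1054 (Sqstm1), -0.0469 to 0.0601 (Tfeb) and -0.2038 to 0.1243 (Ulk1). For knockout in exercised muscle they were -0.0116 to 0.0976 (Map1lc3a) and -0.124 to 0.2691 (Ulk1), and for averaged knockout -0.0877 to 0.0772 (Map1lc3a) and -0.0617 to 0.1348 (Ulk1).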

Other observations

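The cluster that the platform annotation gives to both Bnip3l, a mitophagy receptor related to Bnip3, and the pseudogene Bnip3l-ps was left out of the comparisons, since its signal cannot be assigned to either. It measured 9.53, 9.87 and 9.77 in knockout exercised muscle, 9.59, 9.78 and 9.90 in knockout sedentary, 9.45, 9.68 and 9.70 in wild-type exercised and 9.71, 9.67 and 9.91 in wild-type sedentary. All groups overlapped.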
